A study of Mus musculus with 8 samples.

Results

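A set of 51 genes of the cell cycle was followed in tumor endothelial cells of mice with an inducible vascular overexpression of PPARβ/δ. The genes were chosen by symbol: 17 that act in DNA replication, 8 regulators of the passage from G1 into S phase, 22 that act in mitosis and 4 inhibitors of cyclin-dependent kinases (CDK). All 51 have a row among the 35756 gene rows of the deposited table. The series holds RNA sequencing of 8 such samples, 4 of the Tie2-CreERT2;PPARβ/δ + Tamoxifen group against 4 of the Tie2-CreERT2;PPARβ/δ + vehicle group, with 1 library per animal number. The Tamoxifen animals received 33 mg/kg Tamoxifen per day for 1 week, and the vehicle animals received sunflower oil. LLC1 cells, a mouse lung carcinoma line, were implanted 1 week later, tumors grew for 3 weeks, and cells were then purified from them with CD31 beads. The strain is given as C57BL/6. Per the methods both groups carried the same alleles, PPARβ/δ-flox+/− and Tie2-CreERT2, whereas the labels give the vehicle animals as wild-type. The Cre recombinase is driven by the Tie2 promoter, which is active in endothelial cells and, as is known from other work, in some blood-derived cells. Tie2-CreERT2 animals without the additional PPARβ/δ were not analysed here, so an effect of Tamoxifen or of active Cre cannot be told apart from an effect of PPARβ/δ.

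The cell cycle copies the genome in S phase and divides it in mitosis. Cyclin D with CDK4 and cyclin E with CDK2 release E2F transcription factors, which switch on the genes for replication origins, the replication fork and nucleotide supply. Genes for mitosis are switched on later, in G2, and CDK inhibitors such as p21 and p27 hold the cycle back. Most endothelial cells of adult vessels rest outside the cycle, and tumor vessels are known to hold more dividing ones. Messages of the replication and mitosis genes come from any dividing cell of a sample. In RNA of many cells fewer dividing cells and less message per cell cannot be told apart.

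The promoters of the genes were searched for words known from cell cycle promoters. RefSeq promoters (GRCm38.p6, 250 bases before to 50 bases after a transcript start) were found for 39 of the 51 genes, with 44 starts in all. The cell cycle genes homology region (CHR), searched as TTTGAA or TTCGAA, is known from late cell cycle genes and often lies beside a CCAAT box, searched as CCAAT. E2F words were searched as TTGGCGC or TTCCCGC. All were searched on both strands, where TTCGAA reads the same either way, and an E2F word read as GCGCCAA can share its last letters with a CCAAT box. A CHR word was present in 13 of 17 promoters of mitosis genes (76.5%) and in 3 of 14 promoters of replication genes (21.4%), against 19.2% of the 32851 promoters in the table. The E2F words ran the other way, with 3 of 17 for mitosis genes (17.6%) and 8 of 14 for replication genes (57.1%), against 6.81% of all promoters. CHR and CCAAT box occurred together in the same 13 mitosis promoters and in 3 of 14 replication promoters (21.4%), compared to 7.52% of all promoters. A CCAAT box was present in 15 of 17 mitosis promoters (88.2%) and 10 of 14 replication promoters (71.4%), compared to 37.4% of all promoters. None of the 7 promoters of the 4 CDK inhibitor genes held a CHR word. Such matches describe letters in a window and not bound sites.

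The 250 bases before the start are shown for 3 mitosis genes whose values are described further on, with CHR words and CCAAT boxes in capitals (a match on the other strand reads TTCAAA or ATTGG). They lie at chr10:69352913-69353162 for Cdk1, chr7:135716380-135716629 for Mki67, both on the minus strand, and chr2:164769679-164769928 on the plus strand for Ube2c.
Cdk1: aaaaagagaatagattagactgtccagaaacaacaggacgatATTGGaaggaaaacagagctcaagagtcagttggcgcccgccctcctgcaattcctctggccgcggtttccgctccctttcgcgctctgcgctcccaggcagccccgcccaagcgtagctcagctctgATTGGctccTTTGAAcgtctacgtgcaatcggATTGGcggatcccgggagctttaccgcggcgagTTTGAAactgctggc
Mki67: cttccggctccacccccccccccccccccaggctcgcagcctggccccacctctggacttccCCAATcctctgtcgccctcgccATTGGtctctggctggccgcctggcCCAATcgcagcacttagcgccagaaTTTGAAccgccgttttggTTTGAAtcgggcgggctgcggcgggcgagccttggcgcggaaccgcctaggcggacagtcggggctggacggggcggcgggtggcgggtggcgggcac
Ube2c: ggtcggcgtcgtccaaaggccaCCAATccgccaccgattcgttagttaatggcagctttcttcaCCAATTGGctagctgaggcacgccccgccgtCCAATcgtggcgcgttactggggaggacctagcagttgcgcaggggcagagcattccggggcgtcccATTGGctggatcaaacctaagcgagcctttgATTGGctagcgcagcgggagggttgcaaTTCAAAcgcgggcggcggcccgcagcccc
In Cdk1 the CHR words began 71 and 15 bases before the start, in Mki67 116 and 98 bases before it, and in Ube2c 29 bases before it. Cdk1 and Mki67 each held 3 CCAAT boxes and 2 CHR words, although, as described further on, their levels differed in opposite directions among the vehicle libraries.

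For replication, Mcm6 shows the E2F words (capitals) and Pcna, the gene with the lowest p of the set, shows a promoter with none of them. They lie on the minus strand at chr1:128359706-128359955 and chr2:132253181-132253430.
Mcm6: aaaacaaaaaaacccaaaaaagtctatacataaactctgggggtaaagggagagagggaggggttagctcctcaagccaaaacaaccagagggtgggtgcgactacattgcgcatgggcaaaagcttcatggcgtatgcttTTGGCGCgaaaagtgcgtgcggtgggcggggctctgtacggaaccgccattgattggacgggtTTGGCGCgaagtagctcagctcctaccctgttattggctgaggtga
Pcna: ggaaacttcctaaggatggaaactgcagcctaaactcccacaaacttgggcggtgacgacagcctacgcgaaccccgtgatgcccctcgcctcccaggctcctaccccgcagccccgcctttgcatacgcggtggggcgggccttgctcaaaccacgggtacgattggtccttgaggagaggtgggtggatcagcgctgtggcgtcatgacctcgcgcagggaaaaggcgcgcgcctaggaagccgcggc
The E2F words of Mcm6 began 109 and 46 bases before the start. Neither promoter held a CHR word, and their CCAAT boxes (2 in Mcm6 and 1 in Pcna) are not in capitals.

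Counted reads came to 19730726 to 24884372 per library with Tamoxifen and 20128599 to 22612396 with vehicle, and the level of a gene is its share of them after TMM normalization (CPM). Ppard, the overexpressed gene, was at 122, 70.9, 120 and 118 CPM in the Tamoxifen libraries and at 74.1, 88.3, 53.4 and 81.9 CPM in the vehicle libraries, with p = 0.114 by exact permutation (two-sided). The library labelled Tax2689 thus lay within the vehicle range, and no source used here says if the transgene's reads count toward Ppard. All 12 endothelial and all 9 mural cell markers had a log2 fold change above 0, with summed FPKM (the authors' length-normalized unit) of 941 to 1635 with Tamoxifen and 156 to 645 with vehicle for endothelial markers, and of 328 to 462 with Tamoxifen and 27.7 to 99.0 with vehicle for mural cell markers. Mcam held the largest part of the mural cell sum, at 177 to 335 FPKM with Tamoxifen and 15.2 to 71.1 with vehicle, so that sum mainly follows 1 gene. Macrophage and monocyte markers summed to 6583 to 9825 FPKM with Tamoxifen and 2837 to 8730 with vehicle, so the purified cells were not endothelial alone. Vehicle library oil2453 stood apart. Its ribosomal protein genes were at a summed 225127 CPM (scaled to the library total), against 49066 to 110706 in the other 7 libraries. It also had the highest erythroid and the lowest macrophage marker level. Its epithelial and carcinoma markers summed to 369 FPKM, against 62.5 to 143 FPKM in the other 7 libraries. The part of implanted LLC1 cells in the values of oil2453 was not tested. Vehicle library oil2653 had the highest B cell and T cell marker levels, and Tamoxifen library Tax2455 had the lowest endothelial and macrophage marker levels and the highest fibroblast marker level of its group.

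No cell cycle gene passed the test. The comparison used edgeR's quasi-likelihood test on 14539 genes, with p-values adjusted by Benjamini-Hochberg over all of them and a threshold of 0.05. Of the 51 genes 50 were tested, and 0 were called, as were 0 genes of all tested (0.00%). DESeq2 and limma-voom called 0 of the 50 as well, and DESeq2 called 576 of all genes. The adjusted p of the 50 lay between 0.457 and 0.999. At an unadjusted p under 0.05 there was 1 gene of the 50, lower with Tamoxifen, compared to 10.9% of all genes in either direction, 7.39% higher and 3.54% lower. The groups did not overlap for 1 gene of the 50, again lower, compared to 5.87% of all genes higher and 2.01% lower in every Tamoxifen library. These shares are at or below those of all genes. The median log2 fold change (Tamoxifen over vehicle) was −0.19 over the 50 genes and −0.03 over all genes, and 36 of the 50 were below 0, against 52.8% of all genes. By list the medians were −0.28 for replication, −0.06 for the G1/S regulators, −0.19 for mitosis and 0.18 for the 3 CDK inhibitors tested. With 4 libraries in each group the smallest p of the exact permutation test is 0.0286.

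**Figure D1:**
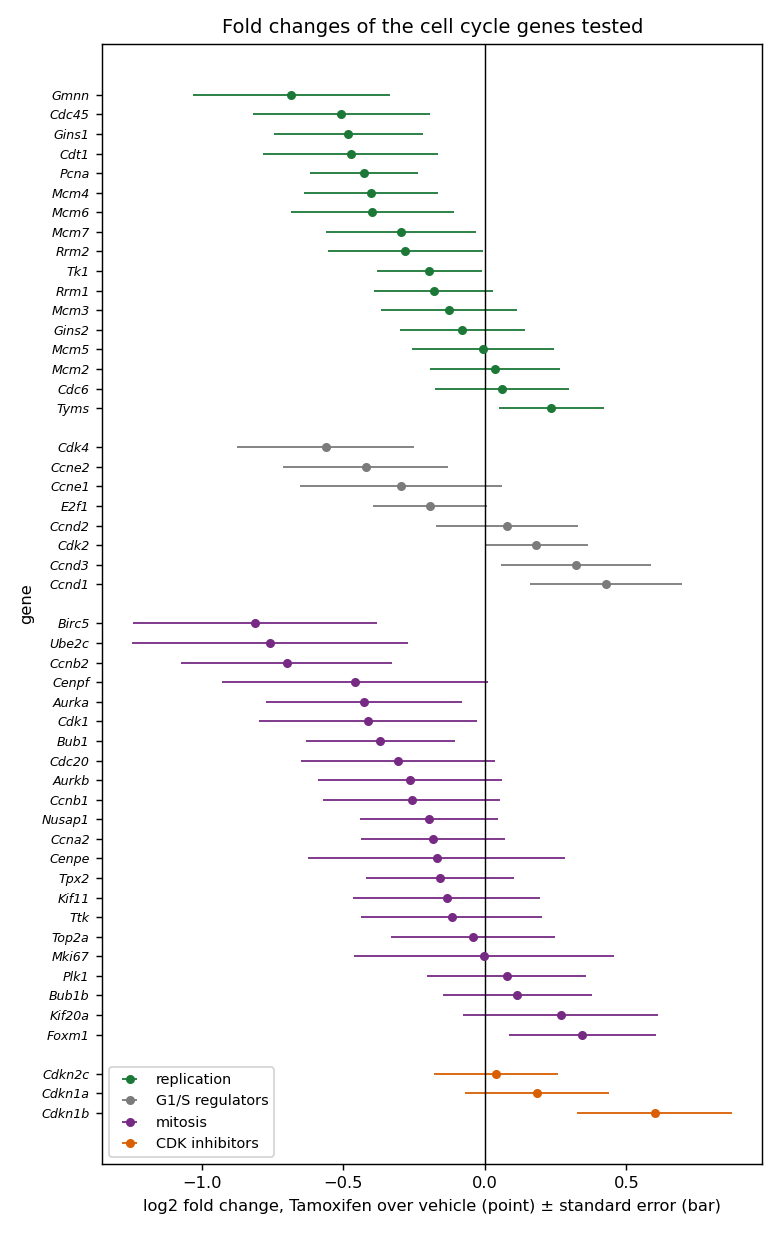
Log2 fold change of each of the 50 genes tested, Tamoxifen over vehicle (x axis, with standard errors as bars), by list (colors). Most points of replication and mitosis lie below 0, the CDK inhibitors lie above it, and no gene was called.

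The replication genes were mostly lower with Tamoxifen in direction, 14 of 17 being below 0. Pcna, the sliding clamp that holds the polymerase on DNA, was at 214, 223, 223 and 215 CPM in the Tamoxifen libraries Tax2604, Tax2689, Tax2382 and Tax2455 and at 313, 247, 331 and 286 CPM in the vehicle libraries oil2453, oil2315, oil2653 and oil2368, and values are listed in this order throughout. Every Tamoxifen library lay below every vehicle library, with a spread of 5.07 CPM (SD) in the Tamoxifen group and 36.8 CPM in the vehicle group. On the log2 scale the difference was −0.43 (standard error 0.19), at an unadjusted p of 0.0497 and an adjusted p of 0.457 by edgeR. The exact two-sided permutation test gave p = 0.0286, the smallest it can give. With the listed gene length as an offset, with scaling by library size alone and with FPKM + 1 on the log2 scale, the groups of Pcna overlapped.

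The 6 subunits of the MCM helicase, which unwinds DNA at the fork, lay between −0.40 and 0.03 in log2 fold change, and differences between subunits were not tested. Mcm4, Mcm6 and Mcm7, the subunits of the catalytic core, had log2 fold changes of −0.40, −0.40 and −0.30 (standard errors 0.24, 0.29 and 0.27). Mcm2, Mcm3 and Mcm5 were at 0.03, −0.13 and −0.01 (standard errors 0.23, 0.24 and 0.25), so none of the 6 was further from 0 than 2 standard errors. Mcm6 was at 72.2, 79.7, 86.1 and 129 CPM with Tamoxifen and at 184, 100, 109 and 90.4 CPM with vehicle. The highest Tamoxifen library, Tax2455, exceeded all vehicle libraries but oil2453.

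Among proteins that license origins or activate the helicase, Gmnn and Cdc45 lay furthest below 0. Gmnn (geminin, which blocks relicensing of origins) was at 10.1, 20.7, 18.8 and 23.3 CPM with Tamoxifen and at 43.5, 17.3, 32.8 and 23.6 CPM with vehicle, which is −0.68 on the log2 scale (standard error 0.35), the lowest of the replication list. Cdc45, a partner of the helicase, was at 13.9, 14.1, 14.6 and 28.9 CPM with Tamoxifen and at 34.9, 22.4, 25.3 and 19.0 CPM with vehicle. In 3 Tamoxifen libraries Cdc45 lay below every vehicle library, and in Tax2455 it lay within their range. Gins1 and Cdt1 had log2 fold changes of −0.48 and −0.47, whereas Gins2 and Cdc6 were at −0.08 and 0.06.

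Among genes for nucleotide supply, Rrm1 and Rrm2, the subunits of ribonucleotide reductase, were at −0.18 and −0.28 and the thymidine kinase Tk1 was at −0.20. Tyms, thymidylate synthase, was the replication gene furthest above 0, with 21.03, 23.2, 23.6 and 22.6 CPM with Tamoxifen and 16.8, 18.3, 21.9 and 19.9 CPM with vehicle. Its lowest Tamoxifen library lay below its highest vehicle library, and the difference on the log2 scale was 0.23 (standard error 0.18; edgeR, adjusted p = 0.637).

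**Figure D2:**
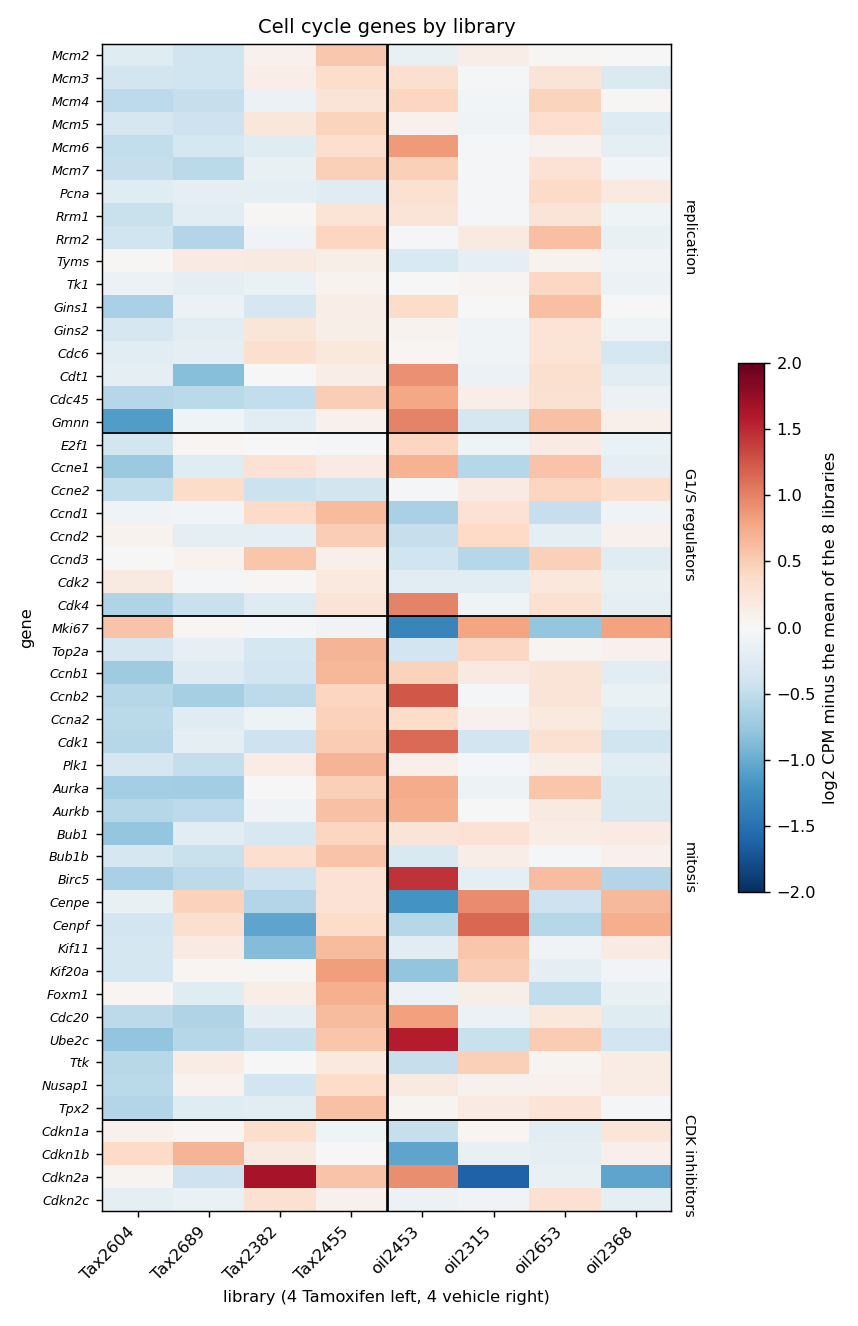
Log2 CPM of each gene (rows, by list) in each library (columns, 4 Tamoxifen left of 4 vehicle) minus the mean of its 8 libraries, red for higher and blue for lower. Tax2604 and Tax2689 are low and Tax2455 is high in most replication and mitosis genes. Of the 22 mitosis genes, oil2453 is the highest library for 7 and the lowest for 4.

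Of the 8 G1/S regulators, 4 were above 0 and 4 below. The 3 D-type cyclins, which carry growth signals to CDK4, had log2 fold changes of 0.43 for Ccnd1, 0.08 for Ccnd2 and 0.32 for Ccnd3 (standard errors 0.27, 0.25 and 0.26). Ccnd1 was at 86.0, 87.3, 118 and 141 CPM with Tamoxifen and at 58.0, 111, 66.0 and 86.7 CPM with vehicle. Their partner Cdk4 lay on the other side of 0, at −0.56 (standard error 0.31), with 110, 122, 140 and 199 CPM with Tamoxifen and 332, 158, 205 and 147 CPM with vehicle. Both Ccnd1 and Cdk4 overlapped between the groups, and the extreme vehicle value was oil2453 in each. E2f1, Ccne1 and Ccne2 were at −0.19, −0.30 and −0.42, and Cdk2 was at 0.18. Ccne2, cyclin E2, was low at 4.42, 8.05, 4.63 and 4.84 CPM with Tamoxifen and 6.09, 7.004, 8.40 and 7.90 CPM with vehicle, and Tax2689 alone among the Tamoxifen libraries lay within the vehicle range.

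Of the 22 mitosis genes, 18 were below 0 and 4 above, and no gene had groups that did not overlap. The standard errors had a median of 0.33 in mitosis and 0.24 in replication, compared to 0.35 over all genes, and the highest library of a gene was a median of 2.63 times its lowest in mitosis and 1.90 times in replication, compared to 3.07 times over all genes. The lowest fold changes were those of Birc5 (survivin, of the chromosomal passenger complex), Ube2c (the ubiquitin-conjugating enzyme of the anaphase-promoting complex) and Ccnb2 (cyclin B2), at −0.81, −0.76 and −0.70 (standard errors 0.43, 0.49 and 0.37). Ube2c was at 24.1, 27.9, 30.5 and 61.2 CPM with Tamoxifen and at 123, 30.4, 58.9 and 31.7 CPM with vehicle. Ccnb2 was at 26.0, 24.2, 26.7 and 51.9 CPM with Tamoxifen and at 90.9, 37.5, 45.9 and 35.3 CPM with vehicle. In each of these genes oil2453 was the highest of the 8 libraries and Tax2455 the highest of its group.

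Cdk1, the mitotic kinase, was at 30.6, 39.6, 34.0 and 64.2 CPM with Tamoxifen and at 99.1, 34.8, 55.9 and 34.4 CPM with vehicle, or −0.41 on the log2 scale (standard error 0.39). Its cyclins Ccna2 and Ccnb1 were at −0.18 and −0.26, the Aurora kinases Aurka and Aurkb at −0.43 and −0.27, and Cdc20, the activator of the anaphase-promoting complex, at −0.31. Plk1, the polo-like kinase, was at 0.08. Checkpoint kinases differed in sign, with Bub1 at −0.37, Bub1b at 0.11 and Ttk at −0.12.

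Among chromosome and spindle proteins the vehicle libraries split. Mki67, the proliferation antigen Ki-67, was at 88.0, 60.9, 57.8 and 56.6 CPM with Tamoxifen and at 23.6, 102, 34.5 and 104 CPM with vehicle, so that all 4 Tamoxifen libraries lay in the gap between the vehicle libraries. The Tamoxifen group averaged 65.8 ± 14.9 CPM and the vehicle group 65.9 ± 42.8 CPM (SD over 4 libraries), and the log2 fold change was −0.00 with a standard error of 0.46. Cenpe, a kinetochore motor, was at 10.5, 16.0, 7.78 and 14.2 CPM with Tamoxifen and at 5.07, 22.5, 8.74 and 18.1 CPM with vehicle. Cenpf, a further kinetochore protein, was at 9.04, 14.7, 5.69 and 15.2 CPM with Tamoxifen and at 7.96, 26.1, 7.97 and 19.5 CPM with vehicle. In these 3 genes oil2453 and oil2653 were low and oil2315 and oil2368 high, the reverse of Ube2c and Cdk1.

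The spindle motors and spindle proteins Kif11, Nusap1 and Tpx2 were at −0.14, −0.20 and −0.16, and Kif20a at 0.27. Top2a, the topoisomerase that untangles chromosomes, was at 93.1, 105, 91.9 and 188 CPM with Tamoxifen and at 90.1, 156, 122 and 124 CPM with vehicle, or −0.04 on the log2 scale (standard error 0.29). Foxm1, a transcription factor of G2 and M genes, was the mitosis gene furthest above 0, at 18.6, 15.3, 19.6 and 29.6 CPM with Tamoxifen and 16.7, 19.7, 12.8 and 16.3 CPM with vehicle (log2 fold change 0.34, standard error 0.26). Tax2455 was the highest of all 8 libraries for Top2a and Foxm1.

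All 3 CDK inhibitors tested were above 0. Cdkn1b (p27) was at 165, 200, 142 and 126 CPM with Tamoxifen and at 60.4, 113, 110 and 134 CPM with vehicle, and Tax2455 alone among the Tamoxifen libraries lay below the highest vehicle library. On the log2 scale the difference was 0.60 (standard error 0.28; edgeR, adjusted p = 0.460), and the exact two-sided permutation test gave p = 0.0571. Cdkn1a (p21) was at 892, 863, 1076 and 786 CPM with Tamoxifen and at 606, 860, 723 and 996 CPM with vehicle, and the groups overlapped. Cdkn2c (p18) was at 0.04. Cdkn2a, whose locus gives p16 and p19ARF from shared exons that the counts do not separate, had 6, 5, 21 and 11 counts with Tamoxifen and 9, 2, 6 and 3 counts with vehicle and was not tested.

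Levels of different genes were compared as mean FPKM over the 8 libraries. For some genes the deposited FPKM does not follow from the counts and the listed length. In Tax2604, Mcm4 (3589 bases) and Mcm7 (2962 bases) had 778 and 792 counts but 11.0 and 37.6 FPKM. The order of genes thus also depends on the lengths that the authors used. Cdkn1a was the highest of the 51 at 734 FPKM, above Pcna at 284 FPKM and Cdk4 at 161 FPKM. The highest mitosis genes were Top2a at 73.1 FPKM and Cdk1 at 47.3 FPKM, and the MCM genes lay between 15.7 FPKM for Mcm4 and 51.4 FPKM for Mcm7. Mki67 was at 6.72 FPKM, Cenpe at 1.70 FPKM and Cdkn2a, the lowest, at 0.394 FPKM.

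To set replication against mitosis and the inhibitors within each library, the log2 CPM of each gene was centred on its mean over the 8 libraries and averaged per list. The replication level was −0.39, −0.33, −0.04 and 0.25 in the Tamoxifen libraries and 0.32, −0.03, 0.33 and −0.10 in the vehicle libraries. The mitosis level was −0.44, −0.22, −0.26 and 0.49 with Tamoxifen and 0.17, 0.21, 0.06 and −0.01 with vehicle. Both lists were lowest in Tax2604, and in both the list average spanned a wider range with Tamoxifen than with vehicle. For mitosis this average joins genes on opposite sides. In oil2453 the 11 longer genes by listed length had a median log2 deviation of −0.30 from the gene means and the 11 shorter ones of 0.74. In oil2315 these medians were 0.41 and −0.04. A narrow vehicle range of the average thus does not mean that its genes varied little. Replication minus mitosis was 0.05, −0.11, 0.22 and −0.25 with Tamoxifen and 0.15, −0.24, 0.27 and −0.09 with vehicle, and its group means differed by −0.05, less than the spread within either group (SD 0.20 with Tamoxifen and 0.23 with vehicle). The level of the 3 CDK inhibitors was 0.10, 0.20, 0.28 and −0.00 with Tamoxifen and −0.55, −0.06, −0.03 and 0.05 with vehicle. The lowest Tamoxifen library, Tax2455, was the one with the highest mitosis level. In the other 3 Tamoxifen libraries the list average of the inhibitors lay above every vehicle library and that of mitosis below every vehicle library. Tax2455 was set aside here with its values in view. Of the 3 inhibitors only Cdkn1b by itself lay above every vehicle library in these Tamoxifen libraries. Cdkn1a at 996 CPM in oil2368 and Cdkn2c at 19.1 CPM in oil2653 exceeded Tax2604 and Tax2689.

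**Figure D3:**
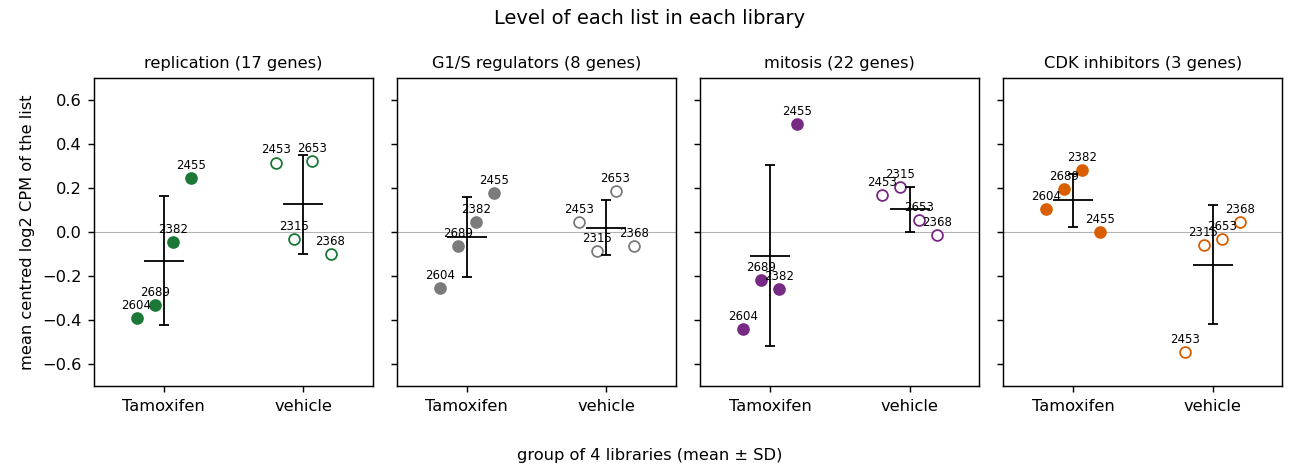
Mean centred log2 CPM of each list (y axis) in each library (points, labelled by number), Tamoxifen left of vehicle, with group mean and SD as black bars. Tax2455 lies at 0.25 for replication and 0.49 for mitosis, above the other 3 Tamoxifen libraries, and oil2453 lies at −0.55 for the CDK inhibitors.

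Tax2455 was the highest Tamoxifen library for 20 of 22 mitosis genes and 13 of 17 replication genes, against 26.4% of all genes. Without it, 9 genes had an unadjusted p under 0.05, all lower with Tamoxifen (Mcm4, Mcm7, Cdc45, Cdk4, Ccnb1, Ccnb2, Bub1, Birc5 and Ube2c), compared to 5.51% of all 14760 genes then tested lower and 7.05% higher. The groups then did not overlap for 12 genes that were lower, 6 of replication, 5 of mitosis and Cdk4, and for Cdkn1b, which was higher, compared to 7.70% of all genes lower and 8.19% higher. The medians were −0.40 for replication, −0.43 for mitosis and 0.25 for the CDK inhibitors, with −0.01 over all genes. The lowest adjusted p of the 50 genes was 0.259, for Cdc45 (log2 fold change −0.82, standard error 0.26, edgeR's quasi-likelihood test), so 0 were called. This setting was chosen with the library's values in view. Besides the markers given above, Tax2455 had the highest erythroid and the lowest T and NK cell and B cell marker levels of its group. Epithelial and carcinoma markers summed to 143 FPKM in Tax2455 and to 62.5 to 79.9 FPKM in the other Tamoxifen libraries. Their mean log2 level was higher in Tax2604, at 0.37 against 0.27 in Tax2455. The part of these marker lists in the cell cycle values of Tax2455 was not tested. Leaving out each other library gave 0 to 2 genes under an unadjusted p of 0.05, 0 of them without Tax2604, Tax2382 or oil2453 and 2 without oil2315 or oil2368.

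The listed gene length, a column of the deposited table, went along with the split of the mitosis genes. Within the list, Spearman's rho of level and length across the 22 genes was 0.60, 0.80, −0.15 and −0.12 in the Tamoxifen libraries and −0.79, 0.77, −0.72 and 0.72 in the vehicle libraries. Across the 8 G1/S regulators rho was 0.62, 0.43, 0.14 and 0.17 with Tamoxifen and −0.83, 0.57, −0.45 and 0.40 with vehicle. Among these, Cdk4 is listed at 2053 bases and Ccnd1, Ccnd2 and Ccnd3 at 3740, 5701 and 3858 bases. With the listed length as an offset, Cdk4, Ccnd1 and Ccnd3 kept their signs and Ccnd2 was at −0.14. The part of length in these signs was not tested further. Genes are not independent replicates and share their library, so these values describe the libraries. Over all genes tested rho was 0.36, 0.09, 0.10 and 0.18 with Tamoxifen and −0.30, 0.22, −0.38 and 0.10 with vehicle. In oil2453 and oil2653 all genes above the median length had a median log2 deviation of −0.29 and −0.15 from the gene means, whereas the 8 longer replication genes were at 0.17 and 0.26. In oil2453 the 11 longer mitosis genes (3421 to 11137 bases) had a median log2 difference of −0.43 from the other vehicle libraries, and the 11 shorter ones (1541 to 3334 bases) a median of 0.76. Mki67 (10075 bases) had 3.65, 2.18, 1.89 and 0.924 times the CPM of Ube2c (2191 bases) in the Tamoxifen libraries. In the vehicle libraries the ratio was 0.192 in oil2453 and 0.586 in oil2653, against 3.35 in oil2315 and 3.27 in oil2368. Mki67 was thus lower and Ube2c higher in oil2453 and oil2653 than in oil2315 and oil2368.

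**Figure D4:**
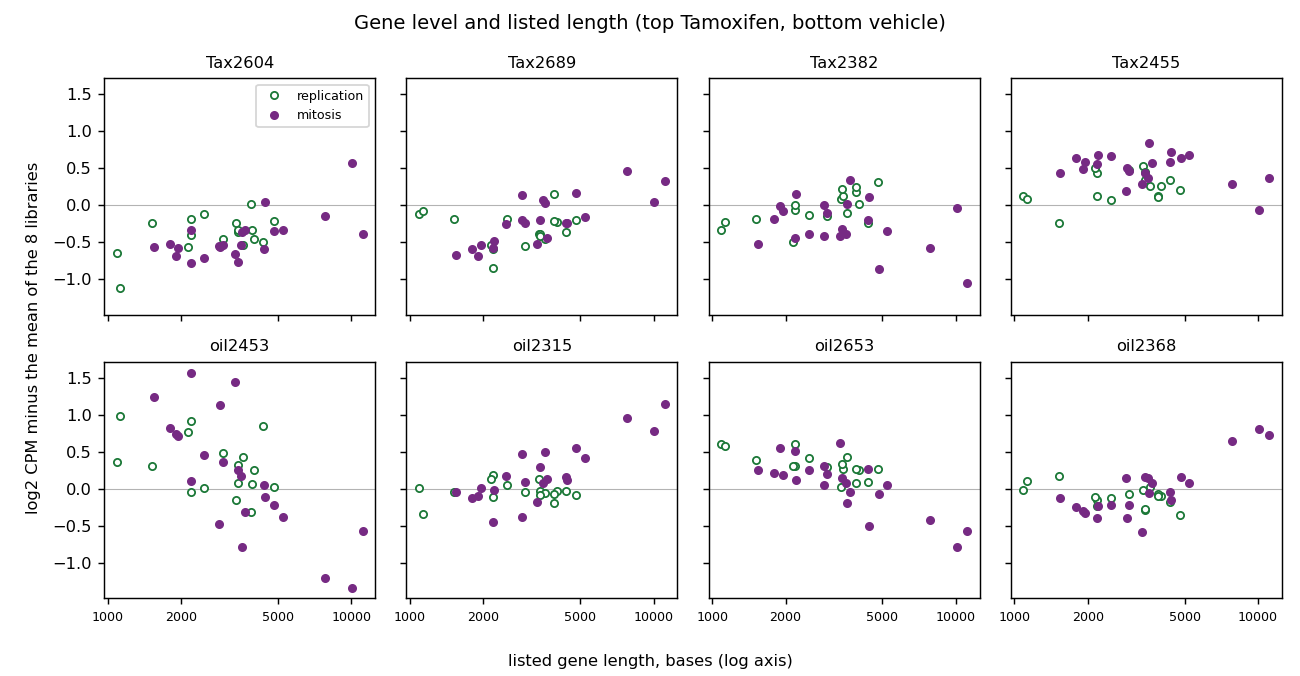
Log2 CPM minus the mean of the 8 libraries (y axis) against listed gene length (x axis, log scale) for replication genes (open) and mitosis genes (filled), 1 panel per library, Tamoxifen above vehicle. In oil2453 and oil2653 the longest mitosis genes (Cenpf, Mki67 and Cenpe) are low, and in oil2315 and oil2368 these genes are high.

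The median log2 fold change was −0.14 in the longer mitosis genes and −0.31 in the shorter ones. When a curve of level on length was fitted in each library and used as an offset, the medians were −0.28 and −0.20, with 0 genes under an unadjusted p of 0.05 and Pcna at −0.23. Without oil2453 they were −0.17 and −0.15. For replication the longer 8 genes had a median of −0.10 and the shorter 9 a median of −0.43, and −0.19 and −0.23 with the offset. Over all genes tested the longer genes had a median of 0.11 and the shorter ones a median of −0.21 without the offset. In both lists the median of the shorter genes was nearer to 0 with the offset, and that of the longer genes further from it. The offset was fitted over all genes tested, so these shifts follow the trend of all genes and are not particular to the lists.

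Genes of the same pathways outside the set were read from longer lists. Of 36 further replication genes tested, 32 were below 0 (median −0.32), 7 had an unadjusted p under 0.05 and were lower (3.54% of all genes), and 1 was higher (7.39% of all genes). The lower ones included Rpa3, of the single-strand binding complex, at −0.85 (standard error 0.32). The higher one was Timeless, a component of the fork protection complex, at 23.3, 21.2, 29.6 and 23.8 CPM with Tamoxifen and 11.8, 12.8, 14.7 and 12.7 CPM with vehicle. Every Tamoxifen library of Timeless lay above every vehicle library, a difference of 0.91 on the log2 scale (standard error 0.20; edgeR, adjusted p = 0.110). DESeq2 gave an adjusted p of 0.000976, and over all alternatives it ranged up to 0.293.

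Of 50 further mitosis genes tested, 43 were below 0 (median −0.26) and 0 had an unadjusted p under 0.05 in edgeR's test, compared to 10.9% of all genes. The 3 with the smallest p were Ckap2, Pttg1 (securin) and Mad2l1, a spindle checkpoint protein, at −0.75, −0.69 and −0.59 (standard errors 0.35, 0.33 and 0.28). Of 19 further genes that restrain the cycle, 9 were above 0 and 10 below (median −0.00), and 2 in each direction had an unadjusted p under 0.05, compared to 7.39% of all genes higher and 3.54% lower. E2f7, a repressor among the E2F factors, was at 11.1, 8.34, 9.73 and 10.5 CPM with Tamoxifen and 4.64, 5.71, 4.41 and 5.85 CPM with vehicle, without overlap (0.94 on the log2 scale, standard error 0.24, edgeR adjusted p = 0.158). DESeq2 gave an adjusted p of 0.00296 for E2f7, and over all alternatives it ranged up to 0.448. Cdkn2b (p15) was low but did not overlap either, at 2.31, 2.37, 4.76 and 1.996 CPM with Tamoxifen and 1.93, 0.835, 0.685 and 0.868 CPM with vehicle (log2 fold change 1.41, standard error 0.48). Gadd45a, a growth arrest gene, was at 40.6, 38.0, 26.0 and 44.8 CPM with Tamoxifen and 187, 66.3, 39.7 and 74.5 CPM with vehicle (log2 fold change −1.30, standard error 0.44).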

How the data were processed

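The deposited table holds, for each of 35756 gene rows, raw read counts and FPKM values of the 8 libraries. Per the study's methods the authors removed reads with adapters, poly-N and low quality and counted the rest per gene with HTSeq 0.6.1, and mm8, Bowtie2 2.2.3 and TopHat2 2.0.12 stand in the submitters' processing notes. The positions of all 51 genes overlap those of GENCODE M21 (GRCm38), 35 with identical bounds. The authors computed the deposited FPKM from counts and gene length, which for some genes was not the listed length. No source used here gives the strand setting of the counting. Columns holding the authors' own comparison were not used.

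Counts of 19730726 to 24884372 per library were analysed in R 4.3.3 with edgeR 4.0.16 (TMM, a filter for a minimum count of 10, quasi-likelihood test), limma 3.58.1 and DESeq2 1.42.0. The common dispersion was 0.195. Single values of 4 against 4 libraries were also compared by exact permutation over 70 assignments. Library numbers were taken as animals, and if they are not, p-values measure technical spread only. Log2 CPM levels of lists use a prior count of 1. FPKM alternatives used log2(FPKM + 1) and log2(FPKM + 0.1) with an FPKM above 1 in at least 4 libraries, or no filter. The other alternatives were median-of-ratios size factors, library size alone, DESeq2, limma-voom, no low-count filter, at least 10 counts in each library, each library left out in turn and, chosen after seeing the data, a per-library length offset. The fits were tested on simulated counts. The text names all 51 genes, Ppard and the 3 genes with the smallest p of each longer list, of which 1 is not reported here, and further genes only as list summaries. The genes and lists were chosen with earlier results of these data known. Promoters are from RefSeq.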

Additional observations from a re-analysis of the deposited data

Results flagged for a closer look

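In 7 of 102 groups of 4 libraries the highest library lay apart from the other 3 by more than Dixon's critical share of the group's range, which chance passes in about 1 of 20 groups. Tax2455 was the library in 3 of them, with Cdc45 at 28.9 CPM (others 13.9 to 14.6), Top2a at 188 CPM (others 91.9 to 105) and Ccnb2 at 51.9 CPM (others 24.2 to 26.7). Mki67 was at 88.0 CPM in Tax2604 (others 56.6 to 60.9), Ccne2 at 8.05 CPM in Tax2689 (others 4.42 to 4.84) and Ccnd3 at 97.6 CPM in Tax2382 (others 67.4 to 71.2). Among the vehicle libraries, Cdk2 was at 46.0 CPM in oil2653 (others 33.7 to 35.7).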

How the results depend on the processing

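None of the 51 genes was called under any of the 18 alternatives, where the lowest adjusted p was 0.186 (Pcna, DESeq2), and the medians of replication and mitosis stayed below 0. Without a low-count filter the median of the CDK inhibitors, now 4 genes with Cdkn2a, was 0.39. Over all genes 177 were called with library size alone, 576 with DESeq2, 68 without a filter, 317 with log2(FPKM + 1) and 221 with log2(FPKM + 0.1), and 0 to 256 with a library left out (256 without oil2453 and 31 without oil2368). Cell cycle genes with an unadjusted p under 0.05 numbered 2 with DESeq2 and limma-voom and 0 with median-of-ratios factors, library size alone, no filter, 10 counts in each library, all 3 FPKM settings and the length offset, and 0 to 9 with a library left out. The share of all genes past that p was 9.74% with DESeq2, 11.1% with limma-voom and 9.01% to 11.0% in the other settings, and 6.28% to 14.0% with a library left out. Genes without overlap numbered 0 with library size alone, log2(FPKM + 1) with or without a filter and the length offset, and 1 to 13 with a library left out (2 without Tax2604, Tax2689 or oil2368, 4 without oil2653 and 13 without Tax2455), against 5.92% to 8.16% of all genes in the settings with all libraries and 8.75% to 15.9% with a library left out.

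Of the 50 genes tested, 34 kept their sign under all alternatives. Log2 fold changes that changed sign were those with library size alone (Mcm5 0.095, Gins2 0.017, Mki67 0.029, Top2a 0.045), limma-voom (Mcm2 −0.0064, Mki67 0.25), no low-count filter (Mcm5 0.0027), 10 counts in each library (Mcm5 0.020, Mki67 0.014), log2(FPKM + 1) with or without a filter (Mcm5 0.071, Gins2 0.016, Mki67 0.26, Top2a 0.027, Cenpe 0.0036), log2(FPKM + 0.1) (Mcm5 0.074, Gins2 0.019, Mki67 0.35, Top2a 0.028, Cenpe 0.091, Ttk 0.00065), the length offset (Mcm2 −0.0072, Cdc6 −0.14, Ccnd2 −0.14). With a library left out, the ranges were Mcm2 −0.16 to 0.15, Mcm5 −0.17 to 0.12, Gins2 −0.18 to 0.039, Cdc6 −0.051 to 0.17, Ccnd2 −0.089 to 0.24, Mki67 −0.28 to 0.27, Top2a −0.34 to 0.098, Cdk1 −0.66 to 0.022, Plk1 −0.18 to 0.22, Bub1b −0.071 to 0.26, Cenpe −0.44 to 0.18, Kif11 −0.42 to 0.066, Kif20a −0.022 to 0.52, Ttk −0.26 to 0.041, Tpx2 −0.44 to 0.012, Cdkn2c −0.065 to 0.16. The cause was not tested. No paired analysis was possible because the groups share no animal numbers.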
